A study of Homo sapiens with 12 samples.

Results

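The 39 genes described here encode the steps of glycolysis, the enzymes and carriers that feed it or divert its product, and a set of classic hypoxia-induced genes together with the oxygen sensors and HIF subunits that control them. They were chosen by name from their known function, with earlier results of these data known, out of 60710 rows of the deposited count table. Of the 39, 38 had enough counts to be tested and 1, SLC2A3, was listed at 0 in every library. They fall into 2 glucose transporters, 9 enzymes of the upper and 6 of the lower part of glycolysis, 3 genes of lactate metabolism, 3 flux regulators, 2 mitophagy receptors, 2 secreted peptides, 4 oxygen-sensing genes, 2 HIF alpha subunits, 2 collagen prolyl hydroxylases and 4 other hypoxia-induced genes. All 12 libraries came from SH-SY5Y, an established human neuroblastoma cell line, grown in well plates in medium with serum. Every well received the same volume of DMSO, the solvent, and was lysed after 5 h. The 4 groups of 3 libraries were DMSO alone, HPPE at 5 uM, zinc protoporphyrin at 5 uM and tin protoporphyrin at 5 uM. The last 2 are metal complexes of protoporphyrin, the ring of haem, and are widely used as inhibitors of haem oxygenase. HPPE is named as the labels give it. One line was treated at 1 dose and 1 time, with no low-oxygen arm. The labels do not say that the 3 libraries of a group came from separate cultures, so the p-values measure the spread between these libraries, which may be technical.

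Hypoxia-inducible factor (HIF) is a pair of an alpha subunit (HIF1A or EPAS1) with a constant partner. In the presence of oxygen, prolyl hydroxylases of the EGLN family, which need iron, mark the alpha subunit for destruction through the VHL protein, and HIF1AN blocks its activity by a separate hydroxylation. When oxygen or iron falls short, the alpha subunit accumulates, binds a short core motif near its targets and raises glucose transporters, most glycolytic enzymes, the lactate enzyme LDHA, the regulators PFKFB3, PFKFB4 and PDK1, the mitophagy receptor BNIP3 and secreted peptides such as VEGFA. Many tumour cells express much of this programme without low oxygen.

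The HIF core motif is ACGTG or GCGTG on either strand. It was looked for in RefSeq promoter windows of GRCh38.p14, which span 250 bases before to 50 after each start; 34 of the 39 genes had an entry, with 64 windows. The promoter stretches of 5 members are shown because they cover the 2 members with the lowest adjusted p for HPPE against DMSO, PFKFB3 and BNIP3, 2 textbook HIF targets with smaller differences, PGK1 and LDHA, and the HIF subunit HIF1A. Each runs 5′ to 3′ on the gene's strand and stops before the first base that GENCODE places in an exon. Capitals mark the core motif on either strand.

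PFKFB3, chr10:6144671-6144920, plus strand: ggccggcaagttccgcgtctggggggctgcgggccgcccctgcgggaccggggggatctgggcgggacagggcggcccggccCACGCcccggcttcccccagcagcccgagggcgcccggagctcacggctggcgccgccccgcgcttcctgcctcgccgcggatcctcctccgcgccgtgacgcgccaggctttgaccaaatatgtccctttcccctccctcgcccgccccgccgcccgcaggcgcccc
BNIP3, chr10:131982014-131982173, minus strand: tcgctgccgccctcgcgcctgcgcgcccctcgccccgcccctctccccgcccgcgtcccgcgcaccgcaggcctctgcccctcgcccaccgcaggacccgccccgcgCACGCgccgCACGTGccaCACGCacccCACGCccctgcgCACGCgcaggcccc
PGK1, chrX:78103998-78104173, plus strand: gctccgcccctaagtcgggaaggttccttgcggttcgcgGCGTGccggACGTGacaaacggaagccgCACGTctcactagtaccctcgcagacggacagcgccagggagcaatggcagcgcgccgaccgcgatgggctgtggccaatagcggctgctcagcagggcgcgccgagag
LDHA, chr11:18394313-18394387, plus strand: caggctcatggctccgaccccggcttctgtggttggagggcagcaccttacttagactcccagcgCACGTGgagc
HIF1A, chr14:61695263-61695512, plus strand: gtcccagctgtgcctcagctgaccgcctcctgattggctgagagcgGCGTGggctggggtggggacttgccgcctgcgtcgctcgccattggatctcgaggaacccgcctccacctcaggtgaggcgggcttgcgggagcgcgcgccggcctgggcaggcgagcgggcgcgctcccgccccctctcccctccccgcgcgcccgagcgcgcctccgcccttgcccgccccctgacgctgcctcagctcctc

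The BNIP3 stretch holds 5 separate runs of capitals within 160 bases, PGK1 holds 3 within 176, and the stretches of PFKFB3 and HIF1A (250 bases each) and LDHA (75 bases) hold 1 each. The stretches differ in length, so these counts are not comparable between genes: the full LDHA window holds further core motifs, at -87, -73 and 38 from the start, and another PFKFB3 window holds a CACGTG at -108. A core motif was present in 42 of the 64 member windows (65.6%), against 48.4% of all 35116 windows. Counted by gene, 30 of the 34 matched members held it in at least 1 window. Some members have several windows, such as HK1 and PFKM with 7 each. The share by gene was not computed over all genes, so this count shows no enrichment. The ACGTG form alone was in 35.9% of member windows and 21.4% of all windows, and the E-box CACGTG, which contains ACGTG, in 12.5% and 7.26%. The antioxidant response core TGACNNNGC was in 9.38% of member windows and 13.3% of all windows. These matches describe letters in a window and are not measured binding sites.

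Total counts ran from 1337028 to 9145399 per library, with 3 libraries at 3141853 or fewer: DMSO replicate 3, HPPE replicate 3 and zinc protoporphyrin replicate 1. The members together took 0.566% to 0.691% of the counts of a library. HMOX1, the inducible haem oxygenase, served as a check of the treatments and averaged 5.90 ± 1.57 CPM (counts scaled to a common library size) with DMSO, 351 ± 17.6 with HPPE, 47.0 ± 19.2 with zinc protoporphyrin and 7.38 ± 0.529 with tin protoporphyrin (SD, n = 3). Summed noradrenergic neuroblastoma markers lay between 4487 and 5181 CPM in all libraries, although TH stayed at or below 0.250 CPM. The stromal list summed to 372 to 455 CPM, most of it COL3A1, with POSTN at 0. The white blood cell and endothelial lists each stayed below 1.51 CPM. The Schwann or glial list summed to 3.13 to 7.10 CPM, and the epithelial list to 10.0 to 13.5 CPM, most of it KRT18. Libraries also differed in a trend with transcript length: Spearman's rho of a library's deviation from the mean of all libraries with transcript length ran from -0.54 to 0.57 over 10881 genes. HPPE replicates 2 and 3 differed by a chi-square of 1.11 per gene, against 1.49 to 17.4 for the other pairs within a group. Calls of members that rest on HPPE are therefore also given with those 2 libraries summed as 1. Counts of members whose libraries do not overlap were not repeated in this way and treat the 2 as separate.

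In control cells the members covered a wide range of levels. Compared per kilobase of the longest annotated transcript, GAPDH stood highest at 591 ± 15.6 CPM per kilobase, followed by ENO1 at 392 ± 13.4, PKM at 273 ± 13.6 and TPI1 at 175 ± 36.1 (SD, n = 3 DMSO libraries). These 4 glycolytic enzymes lay at the 99.2 percentile of tested genes or above on this scale, and the gaps between them exceed their SDs. LDHA (99.8 ± 7.82) and GPI (73.2 ± 3.16), which makes fructose 6-phosphate, came next. HIF1A stood at 60.5 ± 6.38, between GPI and the neuronal enolase ENO2 (54.3 ± 5.55), PGK1 (50.8 ± 6.72) and PFKP (47.3 ± 3.12). Neighbours among these 4 overlap between libraries, whereas HIF1A lay above PFKP in every library. At the low end were the lactate exporter SLC16A3 (0.895 ± 0.280), PDK1 (1.60 ± 0.104) and ANKRD37 (1.86 ± 1.25). The place of PDK1 rests on a longest annotated transcript of 14193 nucleotides, which need not be the one expressed. Before division by length PDK1 averaged 22.6 CPM, above LDHB at 17.7 CPM. SLC2A3, a second glucose transporter, was listed at 0 counts in all 12 libraries, as was its close paralog SLC2A14. How reads that match both genes were counted is not given in the sources used here. These 0 values therefore do not show that the 2 genes are silent, and only SLC2A1 could be tested among the transporters. In bulk RNA, fewer cells that express a gene and less of its RNA per cell cannot be told apart.

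**Figure D1:**
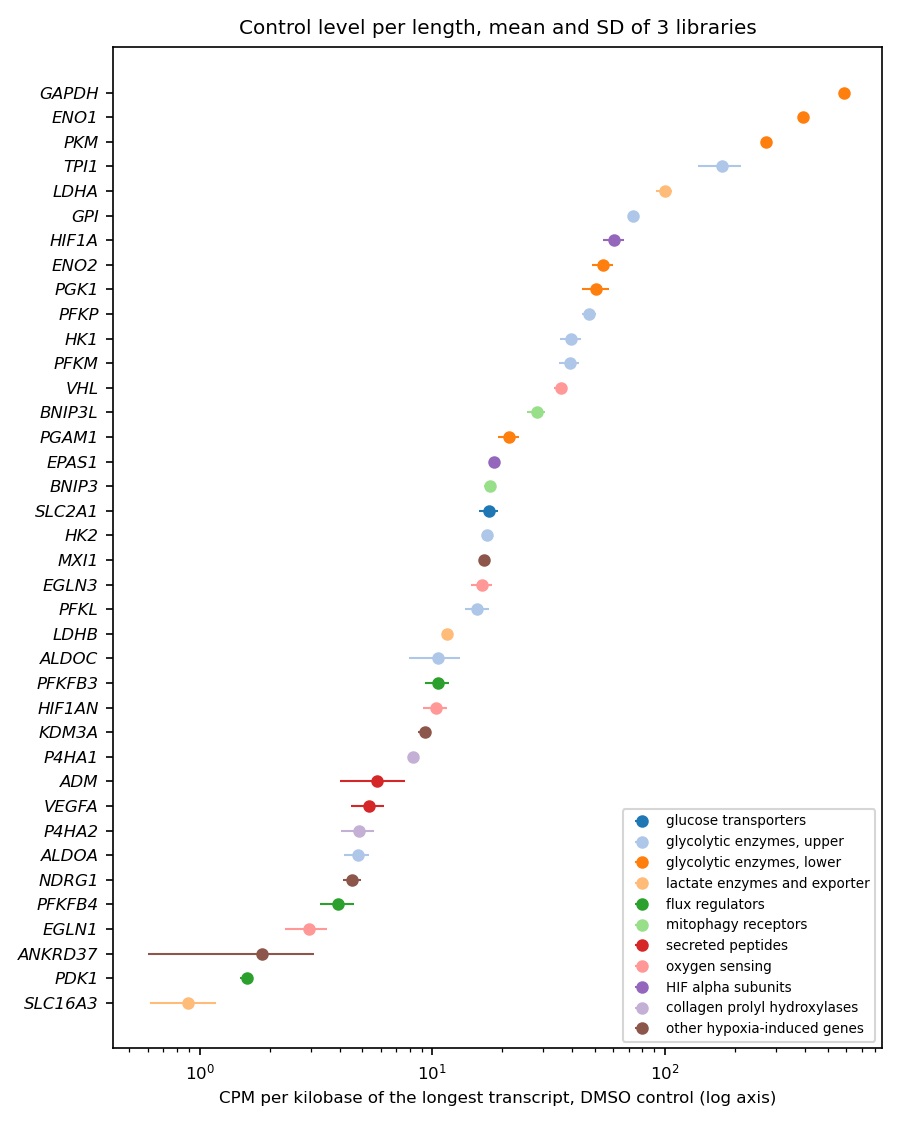
Level of each member detected in DMSO control cells, as CPM per kilobase of the longest GENCODE transcript on a log axis, with points for the mean and bars for the SD of 3 libraries, coloured by role. GAPDH (591) and ENO1 (392) stand at the top and SLC16A3 (0.895) at the bottom.

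3 low values need care. ALDOA, an aldolase, averaged 4.78 ± 0.594 CPM per kilobase, and 42.3% of its exon bases lie on the same strand within the readthrough gene AC093512.2. LDHB stood at 11.5 ± 0.523, and 33.4% of its exon bases are shared with AC010197.2. ANKRD37 shares 35.2% of its exon bases with UFSP2 on the opposite strand. How reads in shared exons were assigned is not given in the sources used here, so these 3 levels are uncertain. Rows named as pseudogenes of a member held 20.2 CPM in 65 rows for GAPDH, 9.48 CPM in 4 rows for TPI1, 7.57 CPM in 44 rows for BNIP3 and 0.881 CPM in 13 rows for PGAM1 in DMSO cells.

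With HPPE, 5 of the 38 tested members rose against DMSO and none fell. They were the flux regulator PFKFB3, the mitophagy receptor BNIP3, the glycolytic enzymes PGAM1 and PFKP, and HIF1A itself. That is 13.2% of the members called higher, against 2.57% of all 16366 genes tested, and 0% called lower against 1.47%, at an adjusted p under 0.05 in the edgeR quasi-likelihood test. The shares over all genes, here and below, were not matched for expression level, which affects how small a difference can be called. The fitted log2 fold change was above 0 for 30 of the 38 (78.9%, against 52.3% of all genes), with a median of 0.13 against 0.02. In 9 members (23.7%) every HPPE library lay above every DMSO library, against 11.9% of all genes, and in 3 (7.89%) below, against 9.44%. Most differences were small: between the lowest, EGLN1 at -0.29, and PFKFB3 at 0.80, all others lay at or below 0.71. Over 16185 genes the log2 fold change with HPPE also had a Spearman's rho of -0.24 with transcript length. With a correction for length and GC content, the median of the members was 0.12, against -0.01 over all genes.

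**Figure D2:**
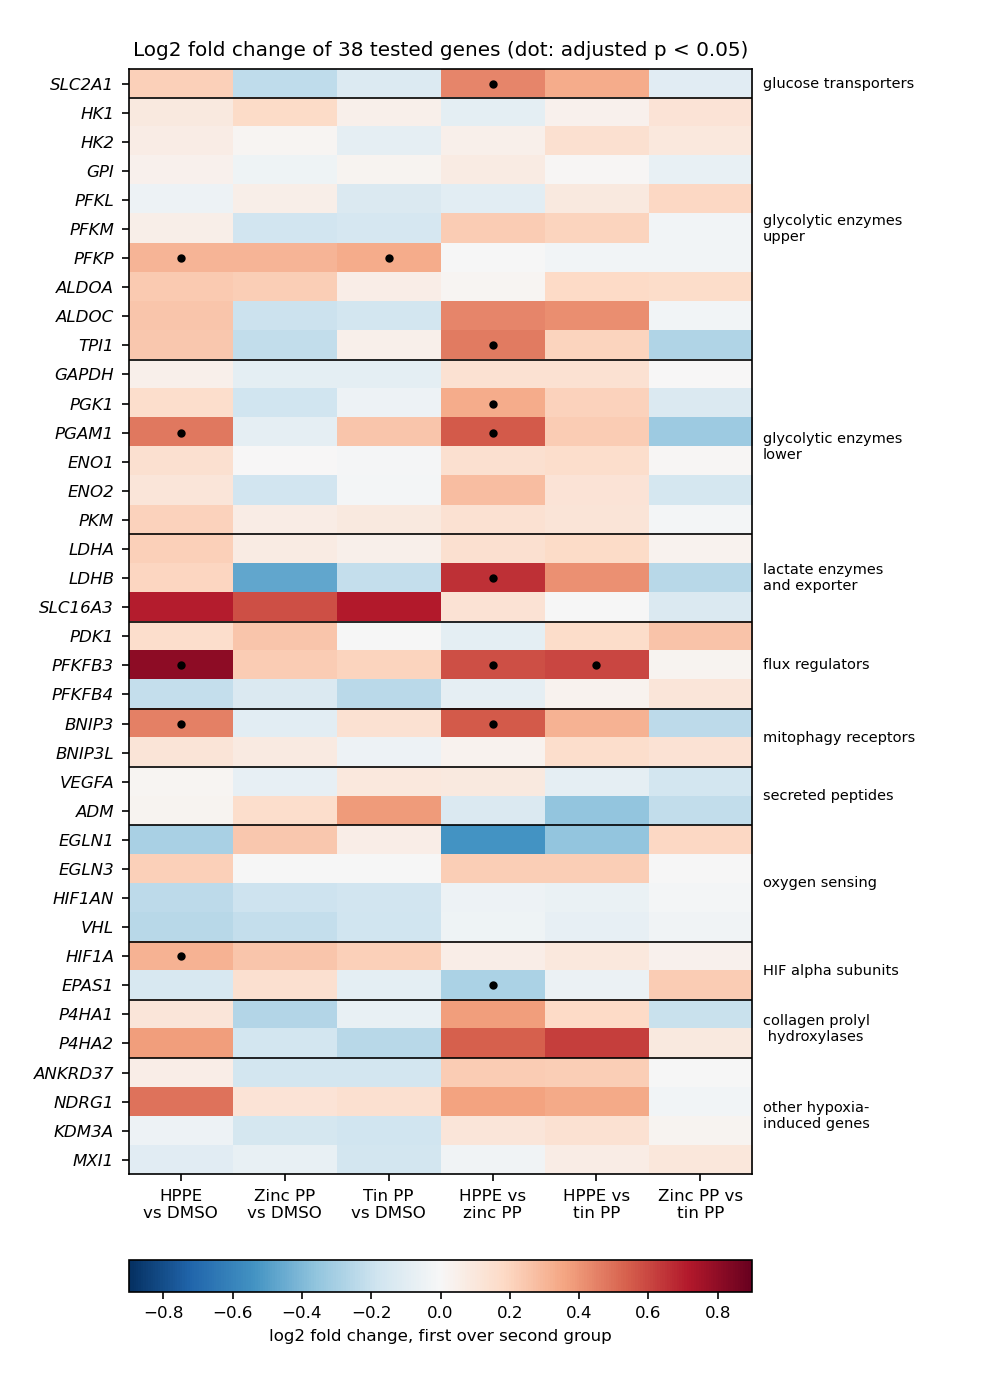
Fitted log2 fold change of the 38 tested members (rows, grouped by role) in 6 comparisons (columns, PP is protoporphyrin), red for higher and blue for lower in the first group, with a dot where the adjusted p was under 0.05. PFKFB3 carries a dot in all 3 comparisons of HPPE with another group, and the 2 metal protoporphyrins against DMSO carry 1 dot, PFKP with tin.

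PFKFB3 makes fructose 2,6-bisphosphate, the strongest activator of phosphofructokinase, and so sets the pace of glycolysis. The gene lies on chromosome 10, 6144934 to 6254644 (GRCh38, plus strand). It stood at 41.4, 50.02 and 51.7 CPM in the DMSO libraries and at 79.2, 81.8 and 85.2 CPM in the HPPE libraries. All 3 HPPE libraries lay above all other libraries, since the zinc protoporphyrin libraries read 51.2, 56.0 and 55.2 CPM and the tin protoporphyrin libraries 54.4, 56.6 and 50.5 CPM. The log2 fold change with HPPE was 0.80 ± 0.09 (SE), 1.75-fold, with an adjusted p of 4.18e-05. Its relative PFKFB4, which carries out the same pair of reactions, read 11.5, 15.7 and 15.3 CPM with DMSO and 10.9, 12.5 and 13.0 CPM with HPPE. These groups overlap, and the log2 fold change of -0.21 ± 0.15 did not pass (adjusted p = 0.491). With the metal complexes PFKFB4 stood at 13.6, 12.6 and 12.5 CPM (zinc) and 12.1, 11.7 and 11.4 CPM (tin). PDK1 phosphorylates and slows pyruvate dehydrogenase, which keeps pyruvate out of the mitochondria. It read 24.3, 21.9 and 21.7 CPM with DMSO, 24.1, 26.4 and 26.3 with HPPE, 29.4, 28.4 and 25.3 with zinc protoporphyrin and 22.5, 22.4 and 23.5 with tin protoporphyrin. Its HPPE log2 fold change was 0.16 ± 0.11 (adjusted p = 0.484), so of the 3 flux regulators only PFKFB3 passed.

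BNIP3 is an outer mitochondrial membrane protein that recruits the autophagy machinery to mitochondria. It is on chromosome 10, 131966455 to 131982013, minus strand, and its promoter is the one shown above with 5 runs of capitals. BNIP3 stood at 51.1, 54.0 and 57.4 CPM with DMSO and 70.8, 75.7 and 73.1 CPM with HPPE, with no overlap. The zinc protoporphyrin libraries read 44.4, 51.8 and 50.6 CPM and the tin protoporphyrin libraries 63.1, 57.0 and 56.6 CPM, all below HPPE. The HPPE log2 fold change was 0.45 ± 0.09, 1.37-fold (adjusted p = 0.00494). Without DMSO replicate 1 the adjusted p was 0.0598. BNIP3L, a related receptor, had all HPPE libraries (112, 111 and 111 CPM) above the DMSO libraries (109.5, 103 and 91.9 CPM), but its log2 fold change of 0.11 ± 0.08 did not pass (adjusted p = 0.487).

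**Figure D3:**
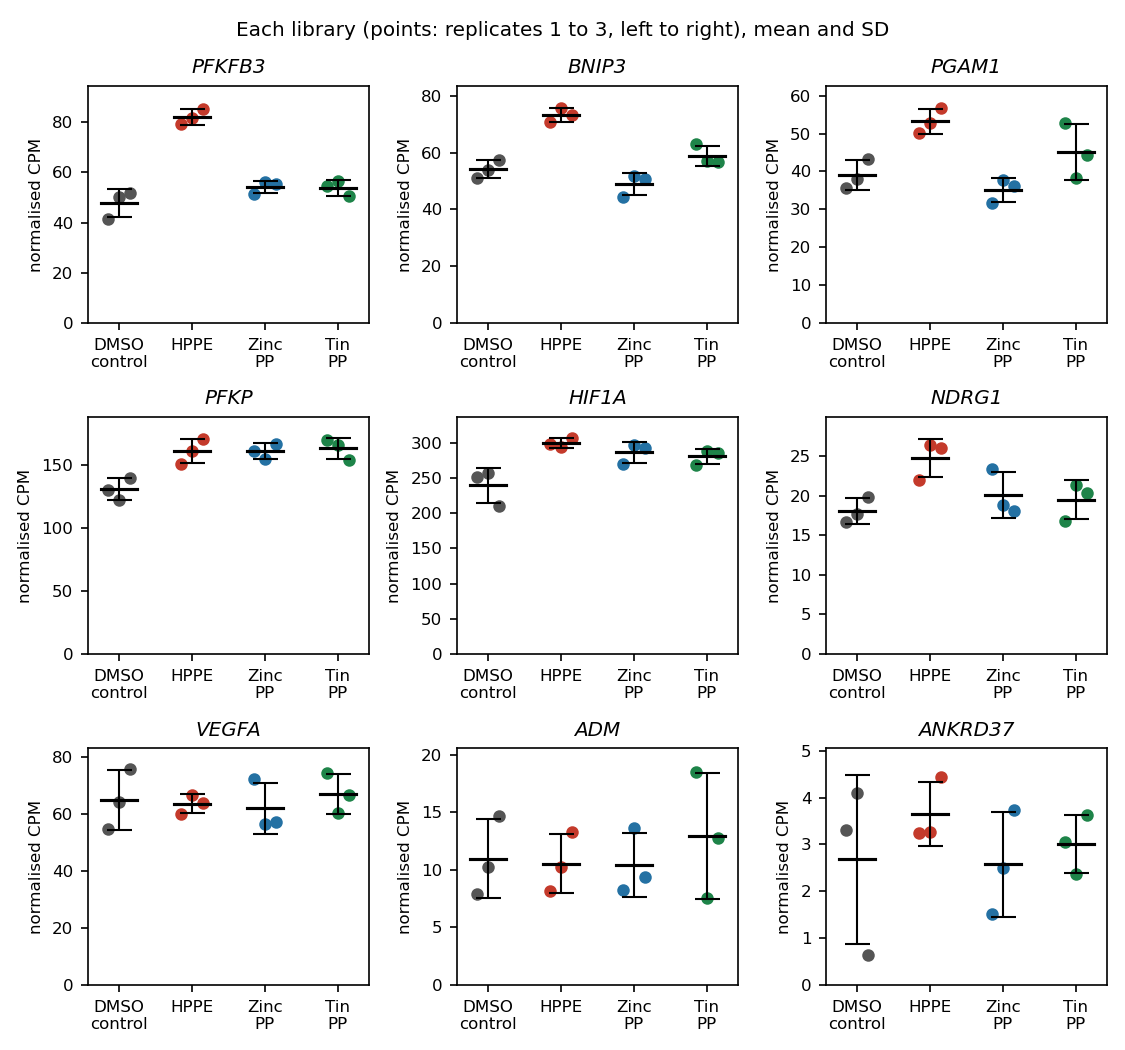
Normalised CPM of 9 members in each of the 12 libraries (points), with the mean (line) and SD (bar) of each group of 3; PP is protoporphyrin and every axis starts at 0. PFKFB3 and BNIP3 with HPPE lie above all other libraries, PFKP and HIF1A lie lower with DMSO than with the 3 compounds, and VEGFA, ADM and ANKRD37 overlap between all groups.

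Of the 9 upper glycolytic enzymes, 1 rose with HPPE. PFKP, the platelet-type phosphofructokinase, which catalyses the committed step, is on chromosome 10 from 3066333 to 3137712. It read 131, 122 and 139.7 CPM with DMSO, 151, 161 and 171 with HPPE, 161, 154 and 167 with zinc protoporphyrin and 170.1, 166 and 154 with tin protoporphyrin. Every library of every compound lay above every DMSO library. The HPPE log2 fold change was 0.31 ± 0.08 (adjusted p = 0.0377). The other 2 phosphofructokinase subunits, PFKL and PFKM, did not pass. HK2, the inducible hexokinase, stood at 105, 97.3 and 95.7 CPM with DMSO, 105, 104 and 104 with HPPE, 105, 107 and 92.6 with zinc protoporphyrin and 86.3, 105 and 91.8 with tin protoporphyrin. Its groups overlap, and the HPPE log2 fold change was 0.07 ± 0.09 (adjusted p = 0.743). TPI1, which interconverts the 2 triose phosphates, read 268, 277 and 382 CPM with DMSO, 329.8, 391 and 363 with HPPE, 264, 284 and 236 with zinc protoporphyrin and 367, 262 and 314 with tin protoporphyrin. The shallow DMSO replicate 3 stood among the HPPE libraries, and the log2 fold change was 0.25 ± 0.14 (adjusted p = 0.367). HK1, GPI, ALDOA and ALDOC also did not pass, and the whole group of 9 ran from -0.04 to 0.31.

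Of the 6 lower glycolytic enzymes, 1 rose with HPPE. PGAM1, the phosphoglycerate mutase, is on chromosome 10 from 97426160 to 97433441. It stood at 35.6, 38.1 and 43.4 CPM with DMSO and at 50.1, 52.9 and 56.7 CPM with HPPE, with no overlap. The zinc protoporphyrin libraries read 31.6, 37.7 and 36.1 CPM and the tin protoporphyrin libraries 52.9, 38.4 and 44.2 CPM, so tin replicate 1 reached the HPPE range. The HPPE log2 fold change was 0.47 ± 0.12, 1.39-fold (adjusted p = 0.0305). GAPDH, the oxidising step, read 1097, 1085 and 1141 CPM with DMSO, 1105, 1173 and 1154 with HPPE, 1024, 1124 and 976 with zinc protoporphyrin and 1096, 1030.3 and 992 with tin protoporphyrin. HPPE and DMSO overlap, while all HPPE libraries lay above all tin protoporphyrin libraries, and the HPPE log2 fold change against DMSO of 0.05 ± 0.08 (95% interval -0.13 to 0.22) did not pass. PGK1, the first ATP-yielding enzyme, read 219, 242 and 284 CPM with DMSO, 257, 288 and 278 with HPPE, 221, 226 and 206 with zinc protoporphyrin and 261, 213 and 239.6 with tin protoporphyrin. HPPE and DMSO overlapped in PGK1, which gave 0.16 ± 0.10 on the log2 scale (adjusted p = 0.428). ENO1 and PKM, the enolase and pyruvate kinase, had all HPPE libraries above all DMSO libraries, at 1078 to 1145 against 975 to 1039 CPM for ENO1 and at 905 to 970.0 against 786 to 867 CPM for PKM. Their log2 fold changes of 0.15 ± 0.08 and 0.21 ± 0.08 did not pass (adjusted p = 0.357 and 0.172).

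Glucose entry and lactate handling gave no call against DMSO. SLC2A1, the basal glucose transporter and a textbook HIF target, read 59.7, 62.2 and 71.5 CPM with DMSO, 74.5, 74.4 and 69.3 with HPPE, 52.0, 55.3 and 53.5 with zinc protoporphyrin and 62.8, 49.4 and 62.2 with tin protoporphyrin. HPPE and DMSO overlap, and zinc protoporphyrin lay below both. The HPPE log2 fold change was 0.21 ± 0.10 (adjusted p = 0.281). LDHA, which turns pyruvate into lactate, read 232, 229 and 263 CPM with DMSO, 253, 289 and 295 with HPPE, 254, 258 and 247 with zinc protoporphyrin and 263, 239 and 239 with tin protoporphyrin. All 4 groups overlap in LDHA, and the HPPE log2 fold change was 0.22 ± 0.08 (adjusted p = 0.181). LDHB, which favours the reverse reaction, read 18.7, 17.3 and 17.2 CPM with DMSO, 18.5, 21.9 and 21.2 with HPPE, 11.3, 16.7 and 9.74 with zinc protoporphyrin and 18.5, 12.6 and 15.03 with tin protoporphyrin. It was lowest with zinc protoporphyrin and overlapped between HPPE and DMSO (log2 fold change 0.20 ± 0.18, adjusted p = 0.610). SLC16A3, the lactate exporter, averaged 4.32 ± 1.35 CPM with DMSO against 7.34 ± 1.83 with HPPE, 7.13 ± 0.626 with zinc and 7.77 ± 1.82 with tin protoporphyrin. Its log2 fold changes of 0.71 ± 0.25, 0.58 ± 0.26 and 0.71 ± 0.24 were among the largest of the members but did not pass (adjusted p = 0.134, 0.245 and 0.160).

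Among the sensors and subunits, HIF1A was the only call against DMSO. HIF1A is on chromosome 14 from 61695513 to 61748259. It read 251, 257 and 211 CPM with DMSO, 298, 294 and 307 with HPPE, 269.5, 296 and 293 with zinc protoporphyrin and 268, 288 and 286 with tin protoporphyrin. The lowest library of each compound lay above the highest DMSO library. The HPPE log2 fold change was 0.31 ± 0.08 (adjusted p = 0.0431). EPAS1, the other alpha subunit, also called HIF2A, read 94.2, 99.4 and 93.2 CPM with DMSO, 89.7, 87.4 and 82.6 with HPPE, 95.6, 112 and 105 with zinc protoporphyrin and 90.5, 94.9 and 84.7 with tin protoporphyrin. All HPPE libraries lay below all DMSO libraries, but the log2 fold change of -0.14 ± 0.08 did not pass (adjusted p = 0.373). EGLN1, the main oxygen-sensing prolyl hydroxylase, read 23.7, 22.97 and 15.95 CPM with DMSO, 22.5, 14.0 and 17.4 with HPPE, 21.8, 28.7 and 25.4 with zinc protoporphyrin and 21.2, 27.4 and 20.2 with tin protoporphyrin. EGLN3, which is itself a HIF target, read 45.6, 42.1 and 51.7 CPM with DMSO, 48.5, 55.7 and 54.5 with HPPE, 40.7, 49.2 and 43.1 with zinc protoporphyrin and 47.8, 42.7 and 44.9 with tin protoporphyrin. Both overlap between HPPE and DMSO, with log2 fold changes of -0.29 ± 0.18 for EGLN1 and 0.22 ± 0.10 for EGLN3 (adjusted p = 0.428 and 0.279). HIF1AN and VHL averaged 116 ± 5.76 and 113 ± 10.0 CPM with HPPE against 135 ± 15.6 and 134 ± 8.60 CPM with DMSO. Their log2 fold changes of -0.23 ± 0.09 and -0.25 ± 0.10 did not pass (adjusted p = 0.171 and 0.180).

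The secreted peptides, usually among the strongest targets of HIF, did not move with HPPE beyond the spread. VEGFA, the vascular growth factor, read 54.6, 64.3 and 75.9 CPM with DMSO, 60.2, 66.8 and 64.0 with HPPE, 72.3, 56.5 and 57.3 with zinc protoporphyrin and 74.4, 60.3 and 66.7 with tin protoporphyrin. All HPPE libraries fell inside the DMSO range, and the log2 fold change was 0.02 ± 0.12, with a 95% interval of -0.23 to 0.26. ADM, which encodes the vasodilator adrenomedullin, read 7.94, 10.3 and 14.7 CPM with DMSO, 8.13, 10.3 and 13.3 with HPPE, 8.28, 13.6 and 9.38 with zinc protoporphyrin and 18.5, 7.54 and 12.8 with tin protoporphyrin. Its HPPE log2 fold change was 0.03 ± 0.31, with an interval of -0.63 to 0.68 that leaves changes of either sign possible. ANKRD37 read 3.31, 4.09 and 0.638 CPM with DMSO, 3.25, 3.26 and 4.43 with HPPE, 1.51, 2.49 and 3.73 with zinc protoporphyrin and 3.05, 2.36 and 3.62 with tin protoporphyrin. The lowest of these is 1 count in DMSO replicate 3, and the HPPE log2 fold change of 0.06 ± 0.32 could not be told from 0 at this depth. NDRG1, a stress-responsive gene, read 16.7, 17.7 and 19.8 CPM with DMSO, 22.0, 26.3 and 26.0 with HPPE, 23.3, 18.8 and 18.0 with zinc protoporphyrin and 16.8, 21.4 and 20.3 with tin protoporphyrin. All HPPE libraries lay above all DMSO libraries, and the log2 fold change of 0.49 ± 0.14 missed the threshold (adjusted p = 0.0574). The collagen prolyl hydroxylases P4HA1 and P4HA2, the histone demethylase KDM3A and MXI1, a MYC antagonist, did not pass either, with P4HA2 highest at 0.38 ± 0.18 (adjusted p = 0.299).

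The 5 calls with HPPE were unequally firm. PFKFB3 passed under all 18 alternative settings, with log2 fold changes from 0.69 to 0.87. BNIP3 passed under 17. PGAM1, PFKP and HIF1A failed under 8, 11 and 12, including each removal of a single HPPE library and of DMSO replicate 1 or 2. HIF1A also failed without DMSO replicate 3. Without DMSO replicate 1, PFKFB3 was the 1 member called. With HPPE replicates 2 and 3 summed, 2 members were called, PFKFB3 and BNIP3. With the main axis of variation within groups as a term in the fit, 13 members were called higher and 2 lower, and calls over all genes rose to 8.87% higher and 7.47% lower. This axis was computed from the same libraries, so the term narrows the spread within groups by construction. The added calls are therefore no independent support.

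**Figure D4:**
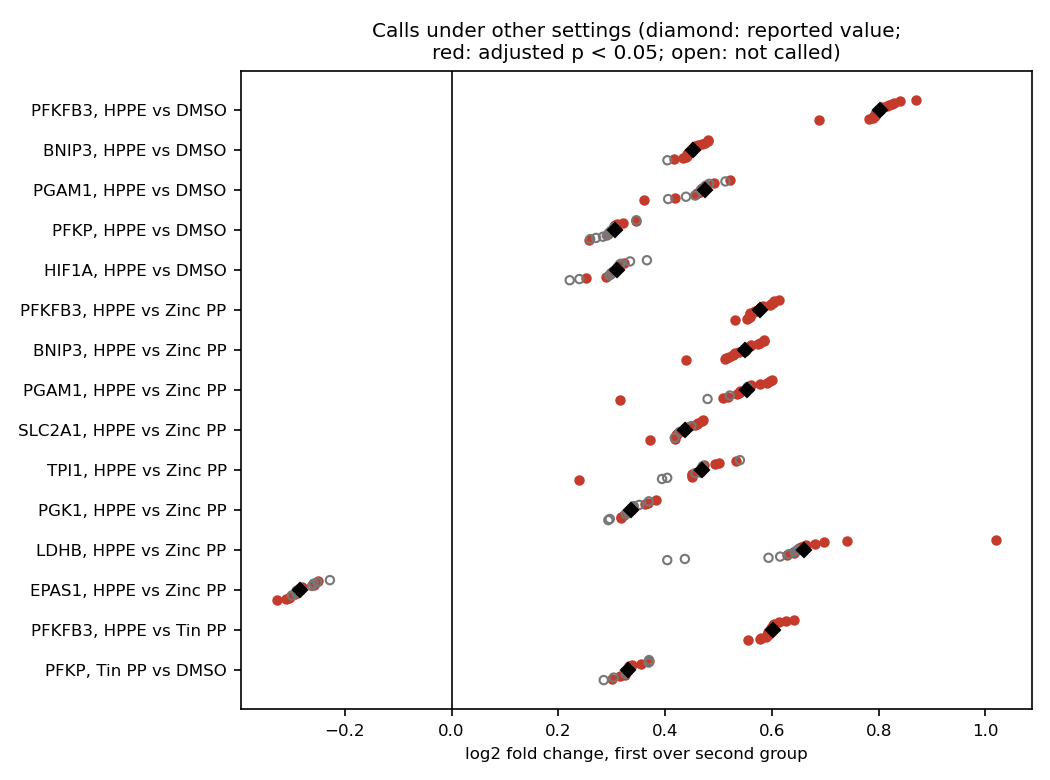
Log2 fold change (x axis) of each called member and comparison (y axis, PP is protoporphyrin) as reported (diamond) and under every alternative setting (circles, red where the adjusted p was under 0.05 and open where not). PFKFB3 is red throughout in its 3 comparisons, from 0.53 to 0.87, whereas PFKP and HIF1A with HPPE against DMSO sit near 0.3 with mostly open circles.

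With zinc protoporphyrin, no member was called against DMSO in either direction, against 1.84% of all genes called higher and 0.415% called lower. 8 members of 38 had an unadjusted p under 0.05, near the 3051 of 16366 over all genes, and DESeq2 called 0 members as well. The median log2 fold change was -0.05, and 17 of 38 lay above 0. Separation of the libraries was near the background, with 5 members (13.2%) above DMSO against 11.6% of all genes and 3 (7.89%) below against 10.4%. The nearest to a call was PFKP, at 0.31 ± 0.08 (adjusted p = 0.0564), the same size as with HPPE. HIF1A followed at 0.25 ± 0.08 (adjusted p = 0.123). SLC2A1 and LDHB gave -0.23 ± 0.10 and -0.46 ± 0.20 (adjusted p = 0.259 and 0.223), with every zinc protoporphyrin library below every DMSO library. PFKFB3 gave 0.23 ± 0.10 (adjusted p = 0.227) and BNIP3 -0.10 ± 0.09 (adjusted p = 0.637). With the axis within groups as a term, 4 members were called higher and 8 lower, beside 13.8% and 11.7% of all genes. That term takes out spread within groups by construction, so these calls do not overturn the count of 0.

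With tin protoporphyrin, PFKP was the single member called higher and none was called lower, against 1.9% and 0.379% of all genes. PFKP rose by 0.33 ± 0.08 on the log2 scale, 1.26-fold (adjusted p = 0.0337). This call was lost under 7 of 17 alternatives, without the 3 shallowest libraries (DMSO 3, HPPE 3 and zinc protoporphyrin 1) and without DMSO replicate 1 or 2 or tin replicate 1 or 3 among them. HIF1A gave 0.22 ± 0.08 (adjusted p = 0.223), PGAM1 0.25 ± 0.12 (adjusted p = 0.344), PFKFB3 0.20 ± 0.09 (adjusted p = 0.326) and BNIP3 0.14 ± 0.09 (adjusted p = 0.486). The median over the members was -0.01, against 0.01 over all genes. Tin protoporphyrin libraries lay above DMSO in 3 members and below in 3 (7.89% each), against 10.3% and 7.6% of all genes. All 3 of these comparisons use the same DMSO libraries, so the similar values of PFKP and HIF1A across them are not independent.

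Compared directly at the same dose and time, HPPE stood above zinc protoporphyrin in 7 members and below it in 1. The 7 were SLC2A1, TPI1, PGK1, PGAM1, LDHB, PFKFB3 and BNIP3, and the 1 was EPAS1. This comparison had the most calls over all genes too: 18.4% of members were called higher against 6.44% of all genes, and 2.63% lower against 6.26%. The largest differences were LDHB at 0.66 ± 0.19 (adjusted p = 0.0354), PFKFB3 at 0.58 ± 0.09 (adjusted p = 0.00167), PGAM1 and BNIP3 at 0.55 ± 0.12 and 0.55 ± 0.09 (adjusted p = 0.0124 and 0.00153). SLC2A1 differed by 0.44 ± 0.10 (adjusted p = 0.0158), TPI1 by 0.47 ± 0.14 (adjusted p = 0.0360) and PGK1 by 0.34 ± 0.10 (adjusted p = 0.0382). EPAS1 was lower with HPPE by -0.28 ± 0.08 (adjusted p = 0.0318). In all 8, the libraries of HPPE did not overlap those of zinc protoporphyrin. Such separation was seen in 13 members upward and 2 downward, or 34.2% and 5.26%, against 19% and 17.7% of all genes.

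The trend with transcript length moved with this contrast and with others. Over 16185 genes the log2 difference of HPPE and zinc protoporphyrin had a Spearman's rho of -0.23 with length. Against DMSO, rho was -0.24 for HPPE, 0.09 for zinc and -0.18 for tin protoporphyrin. It was -0.11 for HPPE against tin and 0.25 for zinc against tin protoporphyrin. TPI1, PGAM1 and LDHB have short transcripts of 1763, 1830 and 1538 nucleotides. With a correction for length and GC content, the differences became 0.24 ± 0.06 for TPI1 (adjusted p = 0.0157), 0.32 ± 0.09 for PGAM1 (adjusted p = 0.0210) and 0.44 ± 0.16 for LDHB (adjusted p = 0.0646), 0.56 ± 0.08 for PFKFB3 and 0.44 ± 0.07 for BNIP3. PGK1, whose longest transcript has 4887 nucleotides, also lost its call, at 0.35 ± 0.12 (adjusted p = 0.0653). PFKFB3 and BNIP3 were called under all 18 alternatives, SLC2A1 under 15, PGAM1 under 14, and TPI1, LDHB, EPAS1 and PGK1 under 9 or 10. Leaving out the 3 shallowest libraries left 2 members called higher and 0 lower. Without HPPE replicate 2, or without zinc protoporphyrin replicate 3, SLC2A1, TPI1, PGK1, PGAM1, LDHB and EPAS1 all lost their call.

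Against tin protoporphyrin, PFKFB3 was the only member called with HPPE, and none was lower, beside 0.745% and 0.709% of all genes. The difference was 0.60 ± 0.09, 1.52-fold (adjusted p = 0.000830). The PFKFB3 call held under all 18 alternatives, the sum of HPPE replicates 2 and 3 among them. Every HPPE library lay above every tin protoporphyrin library in 14 members (36.8%, against 9.81% of all genes), and below in 0 (against 10.1%). Among these were BNIP3 at 0.31 ± 0.08 (adjusted p = 0.0698), SLC2A1 at 0.33 ± 0.10 (adjusted p = 0.110) and the collagen hydroxylase P4HA2 at 0.62 ± 0.17 (adjusted p = 0.0988), none of which passed. EGLN1 gave -0.35 ± 0.17 against tin (adjusted p = 0.399) and -0.54 ± 0.18 against zinc protoporphyrin (adjusted p = 0.0570), with overlapping libraries in both. The median was 0.15 with 30 of 38 above 0. With the axis within groups as a term, 16 members were called higher and 1 lower, beside 8.29% and 7.58% of all genes.

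The 2 metal complexes, which differ in the metal held by the ring, gave no call between them, beside 0.00611% of all genes higher and 0% lower. 5 members of 38 had an unadjusted p under 0.05, near the 2176 of 16366 over all genes, and DESeq2 called 0 members. The difference of zinc and tin protoporphyrin was 0.02 for PFKFB3 (95% interval -0.17 to 0.22) and -0.02 for PFKP (-0.19 to 0.14). PGAM1 gave -0.33 ± 0.12, BNIP3 -0.24 ± 0.09 and EPAS1 0.23 ± 0.08, each with no overlap between the libraries and an adjusted p of 0.353. Zinc protoporphyrin lay wholly above tin in 4 members (10.5%) and below in 3 (7.89%), against 6.56% and 6.38% of all genes. Intervals of this width do not show that the 2 compounds act alike on these genes.

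The wider pathways were read from 2 further lists. The first holds 36 further hypoxia genes, most listed as hypoxia-induced, but also parts of the HIF pathway itself such as ARNT, ARNT2 and EGLN2. Of these 36, 34 were tested, and 3 rose with HPPE (8.82%, against 2.57% of all genes). None fell (against 1.47%), and the median was 0.05 against 0.02. The 3 that rose were ANGPTL4, a lipase inhibitor, GBE1, the glycogen branching enzyme, and TFRC, the transferrin receptor for iron uptake. GBE1 read 11.4, 15.05 and 13.4 CPM with DMSO, 21.6, 22.9 and 22.5 with HPPE, 15.06, 16.6 and 14.1 with zinc protoporphyrin and 17.9, 14.7 and 14.8 with tin protoporphyrin. TFRC read 229, 225 and 205 CPM with DMSO, 264, 279 and 277 with HPPE, 219.9, 207 and 201 with zinc protoporphyrin and 184, 199.6 and 195 with tin protoporphyrin. In both genes every HPPE library lay above every other library. ANGPTL4 stood lower, at 3.19 to 3.57 CPM with DMSO and 6.02 to 8.003 with HPPE, and its highest zinc protoporphyrin library reached the HPPE range. GBE1 rose with HPPE by 0.75 ± 0.14 (adjusted p = 0.00494), ANGPTL4 by 0.98 ± 0.22 (adjusted p = 0.0133) and TFRC by 0.31 ± 0.08 (adjusted p = 0.0254). GBE1 lost its call without DMSO replicate 1 (adjusted p = 0.0709), ANGPTL4 without DMSO replicate 1 or 2 or HPPE replicate 1, and TFRC under 9 of 18 alternatives, among them each removal of an HPPE library and of DMSO replicate 1 or 2. HPPE also stood above both metal complexes in TFRC, by 0.40 ± 0.08 over zinc and 0.51 ± 0.07 over tin protoporphyrin (adjusted p = 0.00683 and 0.000983). Against zinc protoporphyrin 6 genes of this list were higher with HPPE (17.6%, against 6.44% of all genes) and 1 lower (2.94%, against 6.26%). Besides TFRC, the largest were TMEM45A at 0.65 ± 0.20, PPFIA4 at 0.56 ± 0.18, GBE1 at 0.55 ± 0.14 and WSB1 at 0.38 ± 0.10 (adjusted p = 0.0422, 0.0466, 0.0232 and 0.0239). The histone demethylase KDM4B was lower, at -0.36 ± 0.08 (adjusted p = 0.0154). Each of these 5 lost its call under 5 to 10 of 18 alternatives, among them without HPPE replicate 2 and without HPPE replicate 3. Against tin protoporphyrin 1 gene, TFRC, was higher (2.94%, against 0.745% of all genes) and 0 lower.

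**Figure D5:**
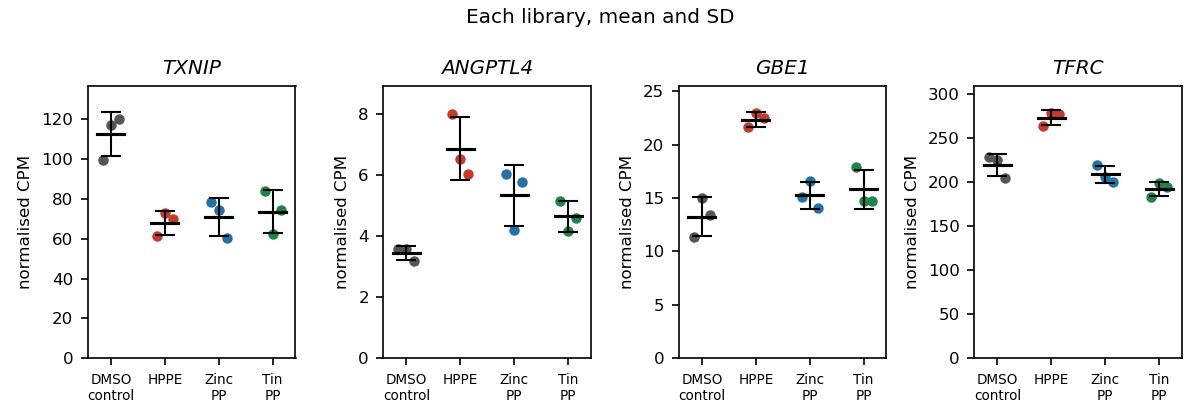
Normalised CPM of TXNIP, ANGPTL4, GBE1 and TFRC in each of the 12 libraries (points), with the mean (line) and SD (bar) of each group of 3; PP is protoporphyrin and every axis starts at 0. TXNIP is highest in the 3 DMSO libraries (99.6 to 120.0), and GBE1 and TFRC with HPPE lie above every other library.

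Of 46 further genes of carbon metabolism, 34 were tested. With HPPE against DMSO, 2 fell (5.88%, against 1.47% of all genes) and 0 rose (against 2.57%). The median log2 fold change of the list with HPPE was -0.004, against 0.02 over all genes. With zinc protoporphyrin 1 fell (2.94%, against 0.415%). With tin protoporphyrin 1 fell and 1 rose (2.94% each, against 0.379% and 1.9%). TXNIP, which restrains glucose uptake and follows intracellular glucose, fell with all 3 compounds. It read 99.6, 117 and 120.0 CPM with DMSO, 61.4, 73.0 and 69.7 with HPPE, 78.3, 74.5 and 60.3 with zinc protoporphyrin and 84.0, 62.2 and 74.3 with tin protoporphyrin. Every treated library lay below every DMSO library, with log2 fold changes of -0.71 ± 0.12, -0.68 ± 0.12 and -0.60 ± 0.12 (adjusted p = 0.00194, 0.00772 and 0.00974). The 3 comparisons use the same DMSO libraries, so these values are not independent. The HPPE call held under all 18 alternatives; the calls with zinc and tin protoporphyrin were each lost under 3, without DMSO replicate 2 in both and without zinc replicate 3 in the former (highest adjusted p 0.0902 and 0.0933). PDP2, which reactivates pyruvate dehydrogenase and so opposes PDK1, read 70.4, 64.4 and 58.1 CPM with DMSO and 47.3, 49.5 and 43.4 with HPPE. It fell with HPPE by 0.47 on the log2 scale (SE 0.10, adjusted p = 0.00942) and with neither metal complex past the threshold. The call was lost without DMSO replicate 1 or 2 or HPPE replicate 3. SLC2A6, a lysosomal hexose transporter, rose with tin protoporphyrin by 0.65 ± 0.15 (adjusted p = 0.0257), a call lost under 7 of 17 alternatives, without DMSO replicate 1 or 2 or tin replicate 1 or 3 among them, and no other gene of this list rose with any compound against DMSO. HPPE stood below zinc protoporphyrin in HK3, a hexokinase at 1.21 ± 0.334 against 3.25 ± 1.17 CPM, and in PDK3, by -1.31 ± 0.33 and -0.43 ± 0.13 (adjusted p = 0.0213 and 0.0445). These 2 genes are 5.88% of the list, near the 6.26% of all genes called lower in that comparison, and 0 were higher (against 6.44%). PDK3 lost its call under 9 of 18 alternatives, each removal of an HPPE or zinc protoporphyrin library among them. HK3 lost it under 4 of 17, without HPPE replicate 2 or zinc protoporphyrin replicate 3 among them, and DESeq2 gave HK3 no adjusted p.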

How the data were processed

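Expression was measured by mRNA sequencing in 12 libraries of SH-SY5Y cells, 3 in each of 4 groups. The deposited table holds raw read counts per gene, which the authors made; per the submitters' processing notes, fastp 0.21.1, STAR 2.7.7a, featureCounts and the GRCh38 build were used, with their settings and the annotation release not given in the sources used here. Totals of 1337028 to 9145399 counts limit precision for members at a few CPM. Genes were filtered by edgeR's filterByExpr, scaled by TMM and fitted over all 12 libraries with the robust quasi-likelihood test of edgeR 4.0.16 (R 4.3.3, limma 3.58.1). p-values are two-sided and Benjamini-Hochberg adjusted over all 16366 genes tested, which hold 99.6% of counts; calls are those with adjusted p below 0.05. CPM values use the same scaling, and errors are SE for log2 fold changes and SD for levels. A fitted fold change weights libraries by depth, so its sign can differ from that of the CPM means where it is near 0, as for VEGFA and ADM. The alternatives were other filters and size factors, DESeq2 1.42.0, only the compared groups, a replicate block, a correction for length and GC content, the main axis of variation within groups as a term, HPPE replicates 2 and 3 summed and each library left out; leaving out the 3 shallowest libraries together was added after seeing the data. Lengths and GC come from GENCODE release 29 and cover 98.9% of tested genes. The test was checked on data simulated gene by gene, without the trend with transcript length. That check does not show how the test behaves under such a trend. The members and lists were chosen with earlier results of these data known. 1 gene of the further hypoxia list is not reported here. Values in every library are given for called members and for a fixed set of well-known HIF targets and regulators, whatever their call; of each further list, called genes are named, at most the 5 with the largest change in each direction of a comparison.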

Additional observations from a re-analysis of the deposited data

Results flagged for a closer look

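AC093512.2, a gene outside the members that shares 42.3% of the exon bases of ALDOA, averaged 2.43 ± 0.663 CPM in the DMSO control (SD, n = 3). It was singled out because every control library holds more than the 3 counts that a count of 0 allows, in a row whose own comparisons are not given here. The ALDOA row itself averaged 12.1 ± 1.51 CPM there.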

How the results depend on the processing

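DESeq2, another low-count filter, unscaled library sizes and non-robust estimation left every count of called members at its reported value or within 1.5 times of it. Against DMSO, the members called higher with HPPE (reported 5) were 3 with no filter, 3 with RLE size factors, 2 with replicates 2 and 3 summed, 2 without the 3 shallowest libraries and 13 with the axis within groups as a term, which also called 2 lower; leaving out 1 library gave 1 to 5 higher and 0 to 1 lower. For zinc protoporphyrin against DMSO (reported 0 and 0), the length and GC correction gave 2 higher and 1 lower, the axis 4 and 8, and leaving out 1 library 0 to 1 higher. For tin protoporphyrin against DMSO (reported 1 and 0), the fit of the compared groups alone gave 0, as did leaving out the 3 shallowest libraries, the length and GC correction 2, the axis 3 higher and 3 lower, and leaving out 1 library 0 to 2 higher. For HPPE against zinc protoporphyrin (reported 7 and 1), the compared groups alone gave 13 higher and 2 lower, the axis 18 and 2, summing HPPE 2 and 3 gave 4 and 0, leaving out the 3 shallowest 2 and 0, and leaving out 1 library 2 to 8 and 0 to 2. For HPPE against tin protoporphyrin (reported 1 and 0), no filter gave 2 higher, the length and GC correction 4, the axis 16 and 1 lower, and leaving out 1 library 1 to 2 higher. For zinc against tin protoporphyrin (reported 0 and 0), the axis gave 2 higher and 3 lower, and leaving out 1 library 0 to 1 of each. The axis narrows the spread within groups by construction, and beyond that the cause of these shifts was not tested.

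Deviations of same-numbered libraries correlated at -0.68 to 0.52. Libraries of different numbers were not compared in this way, so these values cannot decide whether the replicate numbers pair the libraries. A replicate block left 2 members called higher with HPPE, 0 with tin protoporphyrin, and 4 higher and 0 lower for HPPE against zinc protoporphyrin.

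Values near 0 changed sign. With HPPE against DMSO, the length and GC correction gave -0.052 for GAPDH, -0.11 for ADM and -0.10 for ANKRD37; the axis gave -0.010 for VEGFA and -0.15 for ADM; DESeq2 gave -0.0078 for VEGFA and -0.017 for ADM; summing HPPE 2 and 3 gave -0.020 for ADM; leaving out the 3 shallowest gave -0.18 for ANKRD37. Leaving out 1 library gave -0.11 to 0.10 for VEGFA, -0.18 to 0.19 for ADM and -0.085 to 0.35 for ANKRD37. Between zinc and tin protoporphyrin, PFKFB3 went to -0.00885 with no filter and -0.020 with unscaled library sizes, and PFKP to 0.10 with the length and GC correction. Leaving out 1 library gave -0.023 to 0.070 for PFKFB3 and -0.068 to 0.0081 for PFKP.

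Counts over all genes moved too: leaving out 1 library gave 215 to 559 genes higher with HPPE against DMSO (reported 421), 71 to 217 for zinc protoporphyrin (reported 301), 137 to 390 for tin protoporphyrin (reported 311) and 100 to 1035 for HPPE against zinc protoporphyrin (reported 1054). The lower calls ranged over 66 to 475, 1 to 53, 9 to 237 and 73 to 896 (reported 241, 68, 62 and 1024). Zinc against tin protoporphyrin went from 1 higher and 0 lower to 777 and 676 without tin replicate 2. With the axis as a term the higher calls of the first 4 became 1452, 2251, 1261 and 3028. Among the tested members, ANKRD37, SLC16A3 and ADM had the fewest counts, down to 1, 5 and 11 in a library.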

Other observations

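4 of the 5 members called higher with HPPE against DMSO, PFKFB3, BNIP3, PGAM1 and PFKP, lie on chromosome 10, which holds 8 of the 38 tested members. Over all genes of chromosome 10, 23 of 652 were called higher (3.53%), with a median log2 fold change of -0.02. This was noticed after the values were seen and was not tested.

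ARRDC4, a glucose-responsive relative of TXNIP, was chosen after its values were seen. It averaged 15.1 ± 1.97 CPM with DMSO, 12.3 ± 3.57 with HPPE, 10.97 ± 0.758 with zinc protoporphyrin and 9.44 ± 1.06 with tin protoporphyrin. Its log2 fold changes of -0.38, -0.48 and -0.68 did not pass (adjusted p = 0.299, 0.198 and 0.0646). DDIT4 and HILPDA, 2 hypoxia-induced genes, gave 0.10 and -0.07 with HPPE (adjusted p = 0.869 and 0.857). These 2 uncalled genes fall outside the naming rule given above and do not stand for the further hypoxia list. The tested genes of that list ran from -0.57 to 1.17 with HPPE, with 19 of 34 above 0.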
